A study of Mus musculus with 12 samples.

Results

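Heat shock and chaperone genes were followed through 12 RNA-seq libraries of mouse prostate organoids, cultures grown in Matrigel from digested prostate tissue. The 10 genes described are Hspa1a, Hspa1b, Hspa8, Hsph1, Dnajb1, Hsp90aa1, Hspb1, Hspe1, Hspd1 and Hspa5, taken by symbol from the 43243 gene names of the deposited tables. All 10 were found, and all 10 were among the 13600 genes kept for testing, which reached an RPKM of 1 in 6 or more libraries. RPKM is the number of reads on a gene relative to its length and to the depth of the library, so levels of different genes can be set side by side.

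The libraries form 6 pairs, numbered S0 to S5, of a SPOPmut and a SPOPwt culture. SPOP picks the proteins that a cullin ubiquitin ligase marks for degradation, and the series asks which genes differ between SPOPmut organoids and control. The labels assign 5 pairs to model A and 1 to model B, without saying which pair is which. In model A (Line_A) a CreERT2 construct was brought in by virus, with puromycin selection, and in model B (Line_B) the cells came from a mouse carrying the TMPRSS2-CreERT2 transgene, in which Cre depends on the Tmprss2 promoter. All media held EGF at 5 to 50 ng/ml, and the Cre recombinase was switched on overnight with 1 μM 4-Hydroxytamoxifen. SPOPmut cells were sorted by GFP and SPOPwt cells were sham sorted, so genotype and sorting gate cannot be told apart. No SPOP allele is named for these inducible lines, and the labels give neither the age of the mice nor the number of animals or clones behind the pairs. The p-values below therefore measure only the spread between these pairs.

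Heat shock proteins are chaperones: they hold unfolded protein chains, help them fold, and hand those that cannot be folded to degradation. HSP70 proteins bind short hydrophobic stretches in a cycle driven by ATP, HSP40 proteins deliver the clients and start that cycle, and HSP110 proteins exchange the nucleotide. HSP90 acts later, on proteins close to their folded form such as kinases and steroid receptors, among them the androgen receptor of the prostate. The cytosolic genes are switched on by heat shock factor 1 (Hsf1), which binds repeats of the unit GAA and its reverse complement TTC, whereas Hspa5 of the endoplasmic reticulum answers to the unfolded protein response.

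Before the chaperones were compared, the libraries were set against the markers of the labelled tissue. In the 10 libraries of S0 to S4 the summed RPKM of 12 basal epithelial markers was 12.4 to 23.5. For 15 markers of fibroblasts and smooth muscle it was 1663 to 3351. In S5 the same sums were 2777 to 3878 and 18.5 to 18.9. Krt5, the basal keratin, reached at most 0.241 RPKM in S0 to S4, and in S5 it was at 1194 (SPOPwt) and 1705 (SPOPmut). Epcam, an adhesion protein of epithelia, reached at most 1.28 in S0 to S4, and in S5 it was at 96.3 and 88.6. In contrast, the fibroblast collagen Col1a1 stood at 0.162 and 0.202 RPKM in S5, with 269 to 848 in the other pairs. Luminal markers were lower in sum in S0 to S4 but not absent: the 14 of the list summed to 84.4 to 233 RPKM there. In S5 they summed to 2393 to 2660. Krt18 was at 6.35 to 89.6 and Krt8 at 1.44 to 21.5 in S0 to S4. Hoxb13 of the same list went the other way, at 10.3 to 29.9 in S0 to S4 and at 4.43 and 5.04 in S5. Of the 7 luminal markers tested, both S5 libraries lay above the S0 to S4 range for 5 and below it for 1. Of all genes tested, 21.4% lay above and 28.1% below. In S0 to S4, 7 of the 12 basal and 4 of the 14 luminal markers were under 1 RPKM in every library. In both S5 libraries, 0 of the 12 basal and 3 of the 14 luminal markers were. S5 stood apart from the other pairs in the basal, luminal and fibroblast lists. Depth, estimated from the spacing of the lowest values, was 28310000 to 41000000 reads per library. The S1 and S2 libraries resembled each other more than any other libraries of the same group did. Approximate reads were rebuilt from RPKM with these depths. On them the median chi-square per gene was 1.085 between the S1 and S2 SPOPwt libraries and 1.838 between their SPOPmut libraries. It was at least 6.455 elsewhere. Sampling alone of exact reads would give 0.455, so the comparison with that value is only rough. S1 and S2 were used as 2 of the 6 pairs in all fits and counts. Whether they are independent is not known, and if they are not, the SEs and p-values below may be too small. Spop itself was at 51.4 ± 3.66 RPKM (SD, n = 6) in SPOPmut and at 46.0 ± 4.18 in SPOPwt. It was higher in SPOPmut in 6 of 6 pairs, as 3.62% of the genes tested were, and was not called for genotype.

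Sequence upstream of the start was available in RefSeq (GRCm38.p6) for 8 of the 10 genes, as windows of 300 bases from 250 before to 50 after each start. It is shown for 5 of them that hold a match to either of 2 motifs, searched on both strands, so that the matched letters can be seen. The heat shock element was GAANNTTC or TTCNNGAA, each its own reverse complement. The ER stress response element was CCAAT followed after 9 bases by CCACG. Capitals mark the matched bases, and all stretches run 5′ to 3′ along the gene's own strand. Hspa1a is on the minus strand at chr17:34972157-34972356, Hspb1 on the plus strand at chr5:135887719-135887918, Hsph1 on the minus strand at chr5:149636352-149636381, Hspe1 on the plus strand at chr1:55088053-55088082 and Hspa5 on the plus strand at chr2:34772020-34772049.
Hspa1a: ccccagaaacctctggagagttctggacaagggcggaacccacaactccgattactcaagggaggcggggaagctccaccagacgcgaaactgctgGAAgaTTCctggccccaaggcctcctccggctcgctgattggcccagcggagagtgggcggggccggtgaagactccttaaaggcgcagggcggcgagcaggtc
Hspb1: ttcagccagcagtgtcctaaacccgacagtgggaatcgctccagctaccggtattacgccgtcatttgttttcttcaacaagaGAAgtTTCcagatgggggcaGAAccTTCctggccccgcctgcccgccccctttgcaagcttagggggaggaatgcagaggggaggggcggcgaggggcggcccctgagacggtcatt
Hsph1: tgggtagaatctTTCtcGAAggctcgagaa
Hspe1: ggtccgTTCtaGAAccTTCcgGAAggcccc
Hspa5: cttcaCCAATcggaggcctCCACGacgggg

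A heat shock element of at least 2 units was present in 6 of the 8 genes with a window (Hspa1a, Hspa1b, Hsph1, Hspb1, Hspe1 and Hspd1). The share was 17% over the 27025 genes with a window. A gene was counted if any of its windows held a match. In Hspa1a it began 104 bases upstream of the RefSeq start, and in Hspb1 there were elements at 117 and at 97 bases upstream. Hspa1b carried the same element at the same distance, and its window differed from that of Hspa1a at 4 of 300 bases. The stretch printed for Hspe1 holds 4 alternating units over the bases 55088059 to 55088076. Hspe1 and Hspd1 are neighbours on opposite strands, and these same bases lie 134 to 144 bases upstream of a RefSeq start of Hspd1, counted to the first base of each element. A run of 3 alternating units GAA and TTC, each 2 bases from the next and starting with either, overlaps the shorter elements. It was found for Hsph1, Hspe1 and Hspd1, and in 0.662% of all genes. The element shown for Hsph1 is 33 bases upstream of a RefSeq start, and its run of 3 units is 36 bases after that start. The stretches of Hsph1, Hspe1 and Hspa5 reach into annotated GENCODE exons of Hsph1, Hspd1 and Hspa5, whereas those of Hspa1a and Hspb1 touch none. Hspa5 had the ER stress response element 65 bases upstream, which 0.137% of genes have, and it had no heat shock element in this window. Dnajb1 had neither motif in this window. A match describes the letters only.

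**Figure D1:**
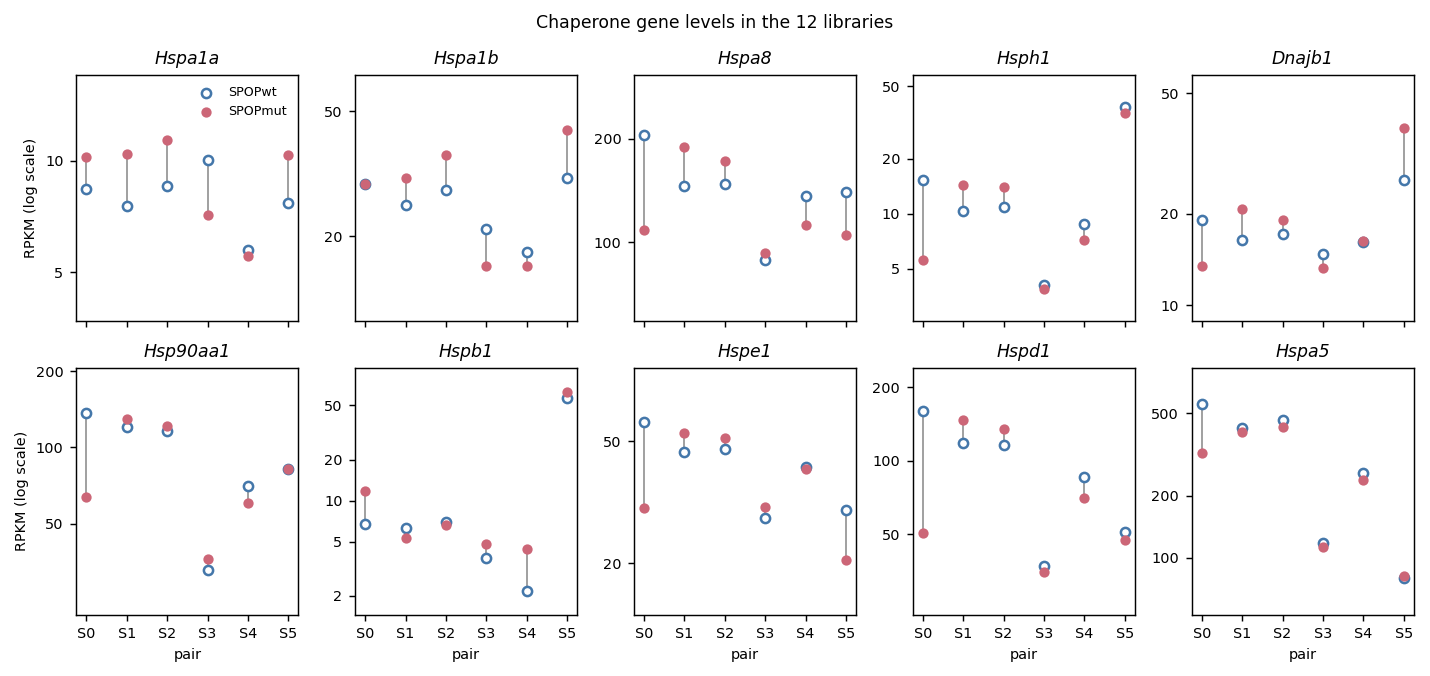
RPKM (log scale) of the 10 genes in the 12 libraries, by pair, with open blue circles for SPOPwt, filled red circles for SPOPmut and a line joining the 2 libraries of a pair. Hspb1, Hsph1 and Dnajb1 are highest in S5, Hspa5 is lowest there, and Hspd1, Hsph1 and Hsp90aa1 have their widest gap within a pair in S0.

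Averaged over the 12 libraries, Hspa5 had the highest level of the 10 genes, at 290.2 RPKM and place 136 among the 13600 genes tested. Hspa8 followed at 137 RPKM and was below Hspa5 in 10 of 12 libraries. In the 2 libraries of S5 the order turned, and Hspa8 was the highest of the 10. Hsp90aa1 and Hspd1 both averaged 87.8 RPKM, with Hsp90aa1 the higher in 5 of 12 libraries, so these neighbours were not separated. Hspe1 (39.6 RPKM), Hspa1b (27.0 RPKM) and Dnajb1 (19.2 RPKM) came next, each above the following gene in at least 10 of 12 libraries. Hspb1 (14.9 RPKM) and Hsph1 (14.1 RPKM) were not separated either, with Hspb1 higher in 4 of 12. The lowest mean was that of Hspa1a, at 8.59 RPKM, with Hsph1 above it in 9 of 12 libraries. This place rests on S5: over S0 to S4 alone Hspb1 averaged 5.90 RPKM, below the 8.51 RPKM of Hspa1a.

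The stress-inducible HSP70 genes Hspa1a and Hspa1b lie close together on chromosome 17 (GRCm38, 34969190 to 34972156 and 34956436 to 34959238, minus strand) and encode nearly identical cytosolic proteins. Hspa1a was at 8.38, 7.57, 8.57, 10.0, 5.75 and 7.68 RPKM in the SPOPwt libraries of S0 to S5, and at 10.2, 10.4, 11.4, 7.14, 5.53 and 10.4 RPKM in the SPOPmut libraries. SPOPmut was higher in 4 pairs and lower in S3 and S4, and the groups overlapped. Over the 12 libraries the highest value was 2.07 times the lowest, the narrowest range of the 10 genes, and 4 of the 5 neighbouring pairs in the order S2, S0, S5, S1, S3, S4 overlapped. Hspa1b was at 29.2, 25.2, 28.1, 21.0, 17.8 and 30.6 RPKM in SPOPwt and at 29.2, 30.6, 36.3, 16.1, 16.1 and 43.6 RPKM in SPOPmut, from S0 to S5. Its values fell into a higher set (S5, S2, S0 and S1, whose neighbours overlapped) and a lower one (S3 and S4).

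The genotype difference, SPOPmut minus SPOPwt on log2(RPKM + 1) with pair in the model, was 0.16 for Hspa1a (SE 0.12, n = 6 pairs, limma adjusted p = 0.887) and 0.10 for Hspa1b (SE 0.12, limma adjusted p = 0.90). Both differences had 95% intervals that span 0, from -0.12 to 0.44 and from -0.17 to 0.37.

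Hspa8, the HSP70 that cells make without stress, is on chromosome 9 (40800984 to 40810087, plus strand). It was at 204, 146, 148, 88.8, 137 and 140.1 RPKM in SPOPwt and at 109, 189, 173, 93.4, 113 and 105 RPKM in SPOPmut, from S0 to S5. SPOPmut was lower in S0, S4 and S5 and higher in the other 3 pairs. Its highest value was 2.30 times its lowest, and in the order S1, S2, S0, S4, S5, S3 only S3 was separated from its neighbour. The genotype difference was -0.15 (SE 0.16, limma adjusted p = 0.898).

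Hsph1, an HSP110 protein that exchanges the nucleotide on HSP70, is on chromosome 5 (149614287 to 149636376, minus strand). From S0 to S5 it was at 15.4, 10.4, 10.9, 4.10, 8.84 and 38.6 RPKM in SPOPwt and at 5.60, 14.4, 14.0, 3.89, 7.16 and 35.8 RPKM in SPOPmut. S5 was above all other libraries and S3 below all others, with a ratio of 9.92 between the extremes. In S0 the SPOPwt library was 2.75 times the SPOPmut library, while in S1 and S2 the SPOPmut library was the higher. The genotype difference over the pairs was -0.16 (SE 0.21, limma adjusted p = 0.903).

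Dnajb1, the HSP40 protein that works with inducible HSP70, was at 19.1, 16.4, 17.2, 14.7, 16.1 and 25.8 RPKM in SPOPwt, from S0 to S5. The SPOPmut values were 13.5, 20.7, 19.1, 13.3, 16.3 and 38.4 RPKM. Outside S5 it varied little, between 13.3 and 20.7 RPKM. Both S5 libraries were above that range, SPOPmut more so than SPOPwt. The genotype difference was 0.071 (SE 0.13, limma adjusted p = 0.925).

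Hsp90aa1, the stress-responsive cytosolic HSP90, is on chromosome 12 (110690605 to 110702728, minus strand). Its SPOPwt libraries were at 137, 121, 116, 32.8, 70.7 and 82.0 RPKM from S0 to S5. Its SPOPmut libraries were at 64.0, 130.1, 122, 36.2, 60.4 and 82.4 RPKM. The pairs S1 and S2 were high, S3 was lowest in both genotypes, and S5 lay inside the range of the others. S0 was the exception within pairs: there the SPOPwt library was 2.15 times the SPOPmut library, while the ratio of SPOPmut to SPOPwt was 0.854 to 1.10 in the other 5 pairs. The genotype difference was -0.17 (SE 0.16, limma adjusted p = 0.889).

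Hspb1, a small heat shock protein that holds unfolding proteins without ATP and is abundant in stratified epithelia, is on chromosome 5 (135887919 to 135889563, plus strand). It was at 6.71, 6.32, 7.01, 3.77, 2.19 and 56.6 RPKM in SPOPwt and at 11.8, 5.31, 6.58, 4.80, 4.44 and 62.7 RPKM in SPOPmut, from S0 to S5. Both S5 libraries were far above the other 10, and the ratio of highest to lowest, 28.7, was the widest of the 10 genes. Within pairs the SPOPmut library was higher in S0, S3, S4 and S5, by 1.76, 1.28, 2.03 and 1.11 times, and lower in S1 and S2. Hspb1 had the smallest unadjusted p of the 10 genes for genotype, 0.0869 in the limma fit, with a difference of 0.27 (SE 0.14, 95% interval -0.050 to 0.60, adjusted p = 0.887).

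Hspe1 and Hspd1 encode HSP10 and HSP60, which build the folding chamber of the mitochondrial matrix. They lie head to head on chromosome 1 (55088132 to 55091307, plus strand, and 55077835 to 55088243, minus strand), and their annotated exons overlap by 112 bases on opposite strands. The library kit does not mark strand, so reads there cannot be told apart. Hspd1 was at 160, 118, 117, 37.0, 85.4 and 51.1 RPKM in SPOPwt and at 50.6, 147, 134, 35.1, 70.2 and 47.4 RPKM in SPOPmut, from S0 to S5. Hspe1 was at 57.6, 46.1, 47.0, 28.1, 41.1 and 29.9 RPKM in SPOPwt and at 30.3, 53.0, 51.0, 30.5, 40.6 and 20.5 RPKM in SPOPmut.

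By pair mean S1, S2, S0 and S4 came in that order for both chaperonin genes, but each overlapped with the next, so their order was not separated. Hspd1 was lowest in S3 and Hspe1 in S5, where its S3 and S5 values overlapped. In S0 the SPOPwt library was 3.16 times the SPOPmut library for Hspd1, the widest within-pair ratio of the 10 genes, and 1.90 times for Hspe1. In S5 the SPOPwt library was 1.46 times the SPOPmut library for Hspe1 but 1.08 times for Hspd1. Over the 6 pairs the genotype difference was -0.26 for Hspd1 (SE 0.23, limma adjusted p = 0.887) and -0.17 for Hspe1 (SE 0.15, limma adjusted p = 0.887).

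Hspa5 encodes BiP, the HSP70 of the endoplasmic reticulum, which binds entering protein chains and holds the stress sensors of that compartment inactive. It is on chromosome 2 (34771970 to 34777547, plus strand). From S0 to S5 it was at 552, 426, 464, 118, 257 and 79.6 RPKM in SPOPwt and at 320, 404, 429, 113, 238 and 81.7 RPKM in SPOPmut. Pairs differed far more than genotypes: differences between pairs held 97.2% of its sum of squares on the log2(RPKM + 1) scale, against a median of 86.2% over the genes tested. S2, S0 and S1 overlapped, and S4, S3 and S5 followed as separate steps. SPOPmut was lower in 5 of 6 pairs, and 9.67% of the genes tested were lower in at least 5 of 6. The genotype difference was -0.18 (SE 0.12, 95% interval -0.45 to 0.082, limma adjusted p = 0.887).

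None of the 10 genes was called for genotype, at an adjusted p under 0.05 in limma, and none had an unadjusted p under 0.05. The background was 0% of the 13600 genes called in either direction, and 5.6% (761 genes) at an unadjusted p under 0.05. Mean differences were above 0 for 4 of the 10 (Hspa1a, Hspa1b, Dnajb1 and Hspb1) and below 0 for 6, with a median of -0.16 against 0.00055 over all genes tested. No member had the same sign in all 6 pairs, as 3.62% of genes did upwards and 1.68% downwards. A missed threshold does not show that the genotypes are alike: the widest interval, that of Hspd1, ran from -0.80 to 0.27.

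**Figure D2:**
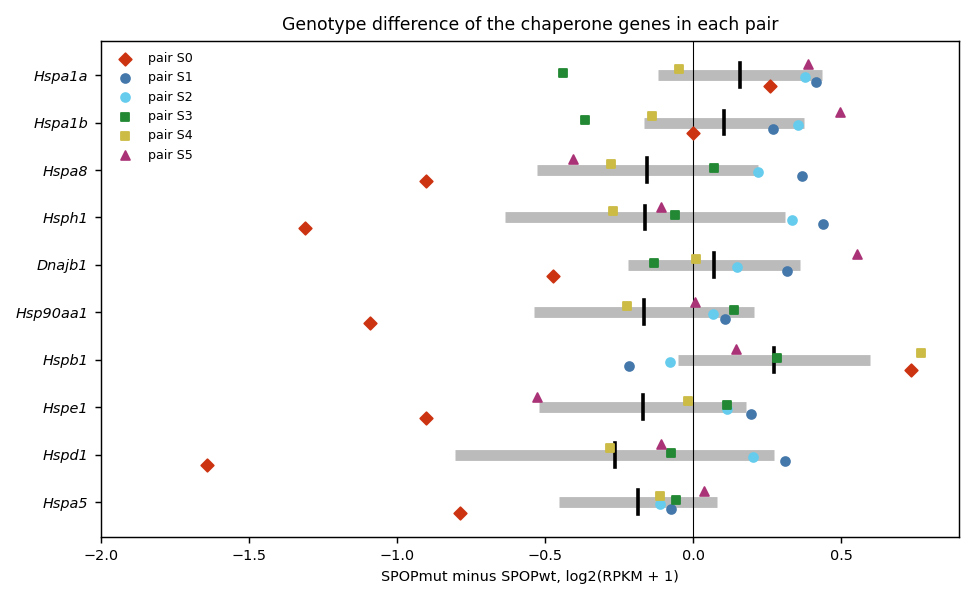
Difference between SPOPmut and SPOPwt on log2(RPKM + 1) for each gene, with 1 marker per pair, the mean as a black bar and its 95% interval from limma as a grey band. The S0 markers (red diamonds) lie at -0.47 or lower for 7 of the 10 genes and at 0.0016 or higher for Hspa1a, Hspa1b and Hspb1, and all 10 intervals span 0.

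The individual pairs went separate ways. In S0 the SPOPmut library was lower by at least 0.5 on the log2(RPKM + 1) scale for 6 of the 10 genes (Hspa8, Hsph1, Hsp90aa1, Hspe1, Hspd1 and Hspa5), where 16.5% of the genes tested were. Their differences in S0 ran from -1.64 (Hspd1) to -0.79 (Hspa5). SPOPmut was higher by at least 0.2 in S0 for 2 of the 10, where 32.6% of genes were. The remaining 4 genes in S0 were Dnajb1 (-0.47), Hspa1b (0.0016), Hspa1a (0.26) and Hspb1 (0.74). Outside S0 only Hspe1 in S5, at -0.53, was lower by that step, with 2.32%, 0.691%, 1.59%, 1.4% and 5.4% of genes lower in S1 to S5. In S1 the SPOPmut library was higher by at least 0.2 for 6 of the 10, where 21.5% of genes were, and in S2 for 5 of the 10, where 10.3% were. In S3 and S4 a single member was that much higher, Hspb1 both times, against 11.3% and 10.4% of genes. In S5 there were 3, Hspa1a, Hspa1b and Dnajb1, against 20.1%. These steps of 0.5 and 0.2 were chosen after the values were seen.

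The median difference over the 10 genes was -0.84 in S0, 0.29 in S1, 0.18 in S2, -0.059 in S3, -0.12 in S4 and 0.022 in S5, and over all genes tested it stayed between -0.030 and 0.049. Without S0 the median of the 10 genotype differences was 0.043, and 7 of 10 were above 0. Hsph1, Hsp90aa1 and Hspd1 changed sign without S0, to 0.067, 0.019 and 0.010. The S0 libraries also differed in markers of cell type and division. The smooth muscle actin Acta2 was at 758 RPKM in SPOPwt and 107 in SPOPmut. Acta2 did not stand for its list: of the 10 fibroblast and smooth muscle genes tested, 3 were lower in SPOPmut in S0. The median difference of that list in S0 was 0.082. Krt18 was at 17.9 RPKM in SPOPwt and 89.6 in SPOPmut, and Mki67, a marker of dividing cells, at 47.9 and 31.2. All 10 proliferation genes of the list were lower in the S0 SPOPmut library, with a median of -0.83. The part of these in the chaperone values was not tested.

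Hspa5, Hspb1, Hsph1 and Dnajb1 carried the contrast of S5 with the other pairs. S5 was singled out from earlier results of these data and is a single pair, so its values are a description with no test. Both S5 libraries lay above all 10 libraries of S0 to S4 for 3 of the 10 genes, where 21.4% of the genes tested did, and below all of them for 1 of the 10, where 28.1% did. Neither share of the members stands far from the background.

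**Figure D3:**
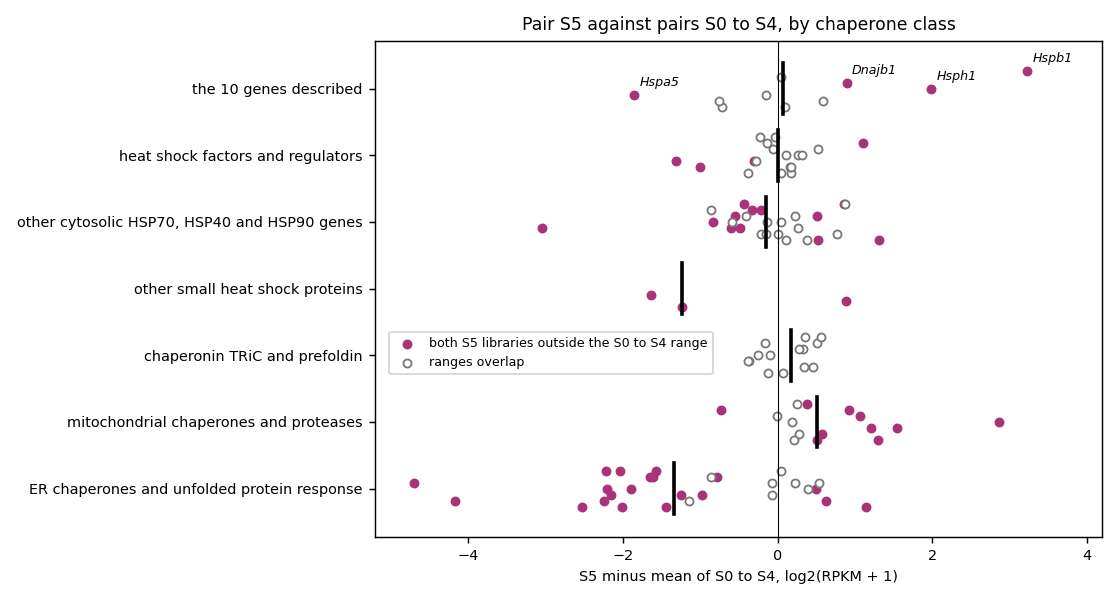
Difference between the S5 pair mean and the mean of S0 to S4 on log2(RPKM + 1), with 1 point per gene by chaperone class and the class median as a black bar. Filled points have both S5 libraries outside the range of S0 to S4; Hspb1 lies at 3.22 and Hspa5 at -1.86, and 17 of 28 ER genes lie below that range, as 28.1% of all 13600 genes do.

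Hspb1 was 9.33 times higher in S5 than in S0 to S4 by the means on the log2(RPKM + 1) scale, a difference of 3.22. Hsph1 was 3.97 times higher (1.99) and Dnajb1 1.86 times higher (0.89). Hspa1b was 1.5 times higher, but its SPOPwt library in S5, at 30.6 RPKM, lay inside the S0 to S4 range of 16.1 to 36.3. Hspa1a (0.095), Hsp90aa1 (0.047) and Hspa8 (-0.15) differed little, and their sign was not stable. Without S4 it was -0.027 for Hspa1a and -0.022 for Hsp90aa1, without S3 it was -0.25 for Hsp90aa1, and with quantile normalization it was 0.080 for Hspa8. Thus Hspa1a, Hspa8 and Hsp90aa1 did not share the high S5 level of Hspb1 and Hsph1. For Hspa1b, S5 was the highest pair by mean, but it overlapped with S2.

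Among the genes at lower level in S5, Hspa5 was 3.62 times lower (-1.86), with 79.6 and 81.7 RPKM against 113 to 552 in S0 to S4. Hspd1 was 1.69 times lower (-0.76) and Hspe1 1.65 times lower (-0.72), both with overlap: the S5 values of Hspd1 were above those of S3. With S3 left out, Hspe1 also lay below the range, which made the count 2 of 10, with 33.6% of the genes tested below. In S5, summed basal markers were high and fibroblast markers low as given above, and the 10 proliferation genes summed to 29.9 to 50.1 RPKM against 47.8 to 435 in S0 to S4. Their part in the S5 values was not tested, and in these bulk libraries fewer cells of a type and less RNA per cell cannot be told apart.

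Around the members, 7 further lists of the folding and stress systems were counted. No gene of any list was called for genotype. Over all genes tested, 6834 means were above 0 and 6766 below. S0 gave the lowest median of the 6 pairs in 5 of the lists: -0.45 for the regulators, -0.27 for the other cytosolic genes, -0.64 for TRiC and prefoldin, -0.32 for the mitochondrial genes and -0.43 for the ER genes. In S1 to S5 the medians of these lists lay between -0.26 and 0.15. Of 18 heat shock factors and regulators, 5 had a mean above 0 and 13 below, with a median of -0.062. Hsf1, the factor that switches on the cytosolic genes, was at 27.0 ± 3.25 RPKM (SD, n = 6) in SPOPmut and at 27.1 ± 2.15 in SPOPwt, and at 28.7 and 31.3 in S5 against 21.4 to 29.7 in S0 to S4. In that list the smallest p belonged to Hspbap1, a protein that binds HSPB1, with a difference of -0.17 (SE 0.083) and a lower value in 5 of 6 pairs. Hspbp1, an HSP70 nucleotide exchange factor, followed with -0.16 (SE 0.089), lower in 5 of 6 pairs.

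Of 26 tested cytosolic HSP70, HSP40 and HSP90 genes beyond the members, 10 had a mean above 0 and 16 below, with a median of -0.015. Hsp90ab1, the constitutive HSP90, had the highest level, at 525.9 to 998 RPKM over the 12 libraries, well above the 32.8 to 137 of Hsp90aa1. Its genotype difference was -0.13 (SE 0.11), and its S5 values lay inside the range of the others, as those of Hsp90aa1 did. Cdc37, which brings kinases to HSP90, had a difference of -0.20 (SE 0.088), lower in 5 of 6 pairs. Fkbp5, an HSP90 cochaperone and androgen and glucocorticoid target, was higher in SPOPmut in 6 of 6 pairs by 0.12 (SE 0.060), and its level in S5 was 1.56 and 1.72 RPKM against 9.24 to 30.3 in S0 to S4.

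Only 3 of 8 other small heat shock protein genes passed the filter, Cryab, Hspb6 and Hspb8. Cryab, the alpha B crystallin that assembles with Hspb1, was higher in SPOPmut in 6 of 6 pairs, by 0.46 (SE 0.11, limma adjusted p = 0.769), which is the smallest p of these lists. Cryab was at 2.65 and 3.57 RPKM in S5 and at 5.70 to 22 elsewhere, the opposite order to Hspb1. Hspb6 was also lower in S5, at 1.51 and 1.35 RPKM against 3.13 to 7.67, while Hspb8 was higher, at 47.3 and 57.8 against 24.6 to 31.0. The small heat shock protein genes thus differed in direction in S5.

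All 14 subunits of the cytosolic chaperonin TRiC and of prefoldin passed the filter, with 2 means above 0 and 12 below and a median of -0.15. In S0 their median difference was -0.64, beside -0.84 for the members, and in S5 none of the 14 lay above or below the S0 to S4 range, where 21.4% and 28.1% of the genes tested did. Cct2, the subunit of highest level, was at 96.0 to 195.5 RPKM and had a genotype difference of -0.054 (SE 0.10).

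Among 15 mitochondrial chaperones and proteases, 3 means were above 0 and 12 below, with a median of -0.11. Htra2, a protease of the intermembrane space, was lower in SPOPmut in 6 of 6 pairs, by -0.18 (SE 0.077, limma adjusted p = 0.886). In S5, 9 of the 15 lay above the range of S0 to S4 and 1 below, against the 21.4% and 28.1% of all genes. Hspa9, the HSP70 of mitochondria, was at 338 and 256 RPKM in S5 against 66.9 to 164 elsewhere. Its nucleotide exchange factors Grpel1 and Grpel2 were 2.92 and 7.28 times higher in S5. Hspd1 and Hspe1, of the same compartment, had lower means in S5.

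Of 28 genes of ER chaperones and the unfolded protein response, 3 means were above 0 and 25 below, with a median of -0.094. Ddit3, the CHOP transcription factor of that response, was lower in SPOPmut in 6 of 6 pairs, by -0.25 (SE 0.067, limma adjusted p = 0.801), and Eif2ak3, its sensor PERK, was higher in 6 of 6, by 0.18 (SE 0.076, limma adjusted p = 0.886). The median difference of the list was -0.43 in S0, while in S1 to S5 it was -0.037, -0.084, -0.022, 0.022 and 0.064. How many of the 28 means would be below 0 without S0 was not counted. In S5, 17 of the 28 lay below the range of S0 to S4 and 3 above, where 28.1% and 21.4% of the genes tested did, with a median of -1.34. Calr, a calcium-binding ER chaperone, was at 84.7 and 93.8 RPKM in S5 against 191 to 719. Serpinh1, the chaperone of collagen, was at 7.22 and 6.20 RPKM in S5 against 141 to 329, and Sdf2l1, a partner of BiP, at 1.01 and 0.939 against 5.48 to 97.9. S5 was also the pair in which the collagen gene Col1a1 was near 0.

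Immediate early genes, which cell handling can switch on within minutes, were counted beside the heat shock genes. Of 19 tested, 14 had a mean difference above 0 and 5 below, with a median of 0.056. In S0 their median was 0.59, opposite in sign to that of the members. In S5, 8 of the 19 lay above the range and none below, where 21.4% and 28.1% of the genes tested did. Fos was at 74.9 and 95.1 RPKM in S5, at 3.99 to 9.74 in S0 to S2 and at 29.2 to 58.4 in S3 and S4. Fosb was at 9.75 and 15.9 in S5 against 0.492 to 4.86 in S0 to S4. The mean log2(RPKM + 1) of the whole list was highest in the S3 SPOPwt library, at 4.82, beside 4.41 and 4.81 in S5. Myc had the smallest p of the list for genotype, with a difference of -0.39 (SE 0.11), lower in 5 of 6 pairs.

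**Figure D4:**
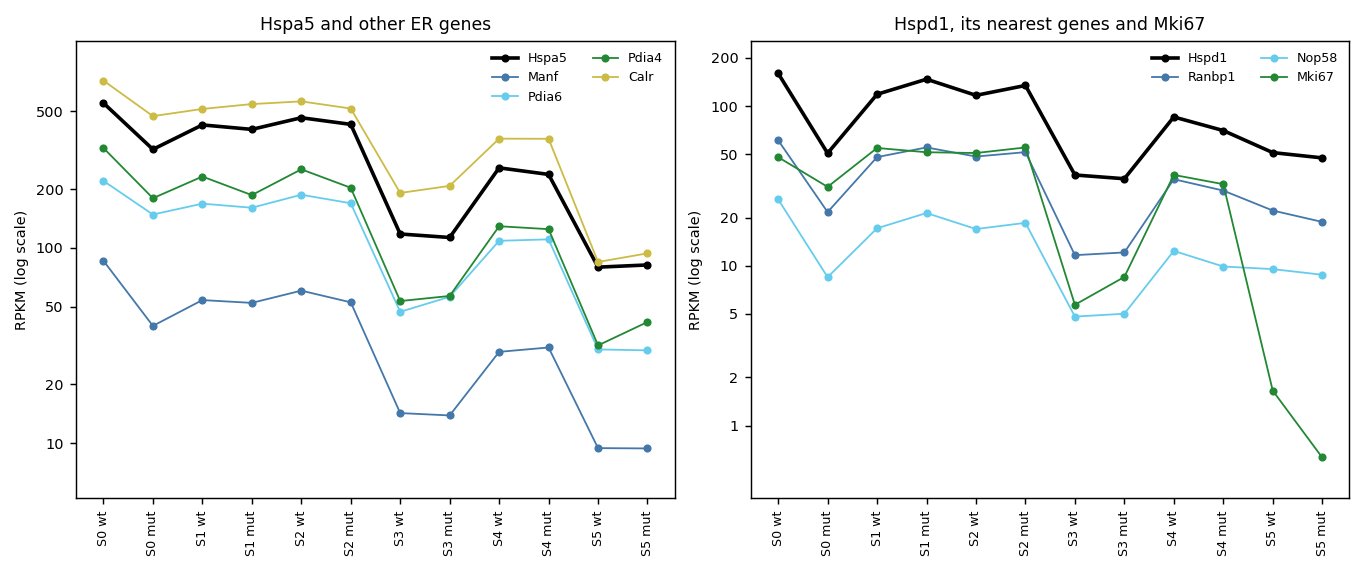
RPKM (log scale) in the 12 libraries of Hspa5 with 4 ER genes (left) and of Hspd1 with Ranbp1, Nop58 and Mki67 (right); lines join the libraries of 1 gene only to guide the eye. Manf, Pdia6 and Pdia4 keep nearly the spacing to Hspa5 in every library, while Mki67 parts from Hspd1 in S5, where it is at 1.65 and 0.631.

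The genes most like a member were taken by the root mean square difference between profiles of log2(RPKM + 1) over the 12 libraries, each centred on its own mean. For Hspa5, whose own profile has a root mean square of 0.981, the nearest genes were Manf (0.0937), Pdia6 (0.124) and Pdia4 (0.144), against a median of 1.01 over the genes tested. Manf is an ER-resident secreted factor, and Pdia6 and Pdia4 form disulphide bonds. Over the libraries Manf ran from 9.39 to 85.9 RPKM, Pdia6 from 29.9 to 220.3 and Pdia4 from 31.6 to 325.

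For Hspd1, with a root mean square of 0.755, the nearest were the gene model Gm12141 (0.0488), Ranbp1 (0.116) and Nop58 (0.160), against a median of 0.800. Gm12141 ran from 45.7 to 229 RPKM and was above Hspd1 in every library. Whether it shares sequence with Hspd1 was not established, so it cannot be taken as an independent gene. Ranbp1 serves nuclear transport, and Nop58 is a nucleolar protein of small ribonucleoproteins. Mki67 paralleled Hspd1 only in part: it was at 5.70 and 8.52 RPKM in S3 and at 1.65 and 0.631 in S5, whereas Hspd1 in S5 was above its S3 level.

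For Hspa1a the nearest gene was Gm20481 (0.142, with 0.291 for Hspa1a itself and a median of 0.441), followed by Nfkbib (0.177), an inhibitor of NF-kappaB, and Rhou (0.183), a small GTPase. For Hspa8 the nearest were the gene models Gm15459 (0.0248), Gm26825 (0.0250) and Gm8355 (0.0489), with 0.371 for Hspa8 itself and a median of 0.479. Several of these nearest genes share sequence with the member they resemble.

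**Figure D5:**
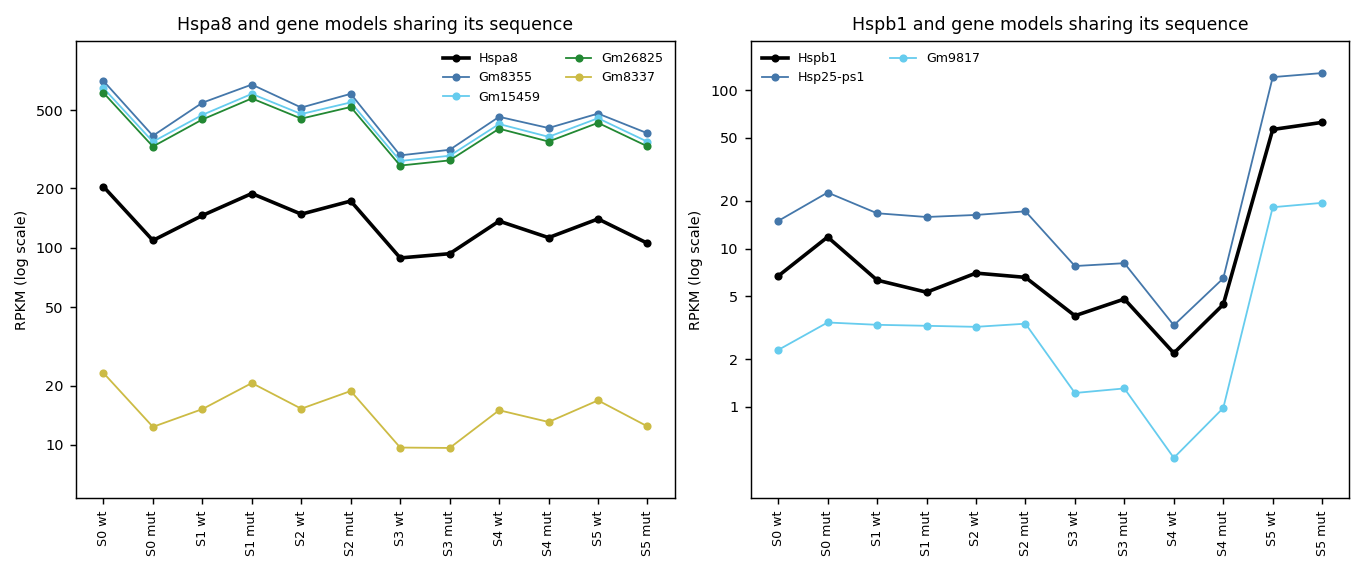
RPKM (log scale) in the 12 libraries of Hspa8 with 4 gene models that share its sequence (left) and of Hspb1 with Hsp25-ps1 and Gm9817 (right). The gene models Gm8355, Gm15459 and Gm26825 lie above Hspa8 and follow it, and Hsp25-ps1 is above Hspb1 in all 12 libraries.

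Sharing was measured as the part of all 51-base stretches of a gene's exons, the length of a read, that occur in another annotated gene on either strand. It was 66.1% for Hspa1a, 62.0% for Hspa1b, 49.9% for Hspb1, 47.3% for Hsp90aa1, 41.6% for Hspd1, 39.1% for Hspa8 and 22.4% for Hspe1. It was 0.349% for Dnajb1 and 0% for Hsph1 and Hspa5. Levels of the first 7 genes are therefore uncertain, since how the authors counted reads with several matches is not given in the sources used here. For Hsph1, Dnajb1 and Hspa5 little or no exact sharing was found, but copies with mismatches or outside the annotation were not searched for.

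The gene models that share sequence had values of their own in the deposited tables. Gm8355 was at 294 to 702 RPKM and 3.31 to 3.73 times Hspa8 in each library, Gm15459 3.11 to 3.27 times and Gm26825 2.94 to 3.10 times. Gm12346 was 1.61 to 1.73 times Hsp90aa1. Hsp25-ps1, a processed pseudogene named after Hspb1, was 1.46 to 2.99 times Hspb1 and shared its high S5 values, up to 129 RPKM. Hspa1b was 2.09 to 4.21 times Hspa1a, and 564 of the 2967 exon bases of Hspa1a are overlapped by Gm20481 on the opposite strand, which these unstranded libraries cannot separate.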

How the data were processed

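Per the file names, the deposited values are RPKM computed by the authors for 43243 gene names, 1 table per library. Alignment tool STAR 2.4.0j and builds GRCm38 and mm10 come from the submitters' processing notes. For the read counter, the annotation and the handling of reads that match several genes, the sources used here say nothing. Library preparation used the TruSeq RNA kit v2, and libraries were sequenced as paired-end reads of 51 bases on a HiSeq 2500, per the labels' protocols.

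The 10 genes and the lists were chosen with earlier results of these data known. Values were transformed to log2(RPKM + 1), which understates differences of genes of low level, and the 13600 genes that reached an RPKM of 1 in 6 or more libraries were tested. limma 3.58.1 in R 4.3.3 fitted pair and genotype with a trended, robust prior on the variance. Its two-sided p-values were adjusted over all genes tested (Benjamini-Hochberg) and called under 0.05. Genes beyond the 10 were named by rule: per list, those called or else the 2 of smallest p, the 2 of largest S5 difference outside the S0 to S4 range, and the gene of highest level, plus the 3 nearest profiles of Hspa1a, Hspa8, Hspd1 and Hspa5. Hsf1, Epcam, Krt18, Col1a1, Acta2 and Mki67 were picked from the lists after their values were seen, and not every gene so named is printed. Tables and figures were made in Python 3.11.15 with pandas 2.3.3.

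Pairing comes from the labels, whose protocols speak of pairs and whose titles number both groups S0 to S5. Deviations from the group means correlated across genes within S1 to S5 (0.753 to 0.954) and hardly within S0 (0.0602). Depth was estimated from RPKM steps with GENCODE M21 exon lengths for 91.2% of the names. Only 39.4 to 42.7% of low values lay at a step of 0.5 reads within 0.04, so exact reads were not recovered and genotype was not tested on counts. The chi-square between libraries used approximate reads from these depths and lengths. Coordinates are from GENCODE M21 and sequences from RefSeq, both on GRCm38. On simulated data of 13600 genes with 50 changed per fold, the fit recovered 12% at 1.25-fold, 66% at 1.5-fold, 82% at 2-fold and 100% at 3-fold, with 5 false calls. The simulated noise was independent between genes, with no shift shared by the genes of a pair. In the real data the SD of the differences over genes was 0.562 in S0 and 0.161 to 0.296 in S1 to S5. The simulated rates may therefore overstate what these libraries can recover. Alternatives covered the block, the pseudocount, the filter, 2 scalings, the variance prior and leaving out pairs.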

Additional observations from a re-analysis of the deposited data

Results flagged for a closer look

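In 30 sets of 6 values (each gene in SPOPmut, in SPOPwt and as a difference over the pairs), the gap of the extreme library or pair to its nearest neighbour was divided by the whole range. In 5 of them this share was above 0.625, the 95% critical value of Dixon's test for 6 values, which chance passes in about 1 in 20 sets. The 30 sets are not independent, since the differences come from the same libraries and all genes share these libraries. The 5 flags therefore cannot be weighed against that rate. S5 was singled out beforehand from these data, so its flags are a description and no test.

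Hspb1 in S5 was far from the other 5 libraries in both groups. In SPOPmut it was at 5.99 on log2(RPKM + 1), against 2.44 to 3.68 elsewhere, and the share was 0.651. In SPOPwt it was at 5.85, against 1.67 to 3.0, and the share was 0.682.

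The S0 pair was the extreme in the other 3 sets, all differences of SPOPmut minus SPOPwt. Hsp90aa1 differed by -1.09 in S0 and by -0.22 to 0.14 in the other pairs, with a share of 0.705. Hspd1 differed by -1.64 in S0 and by -0.28 to 0.31 elsewhere, with a share of 0.698. Hspa5 differed by -0.79 in S0 and by -0.11 to 0.037 elsewhere, with a share of 0.818.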

How the results depend on the processing

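No gene was called for genotype, among the 10 or among all genes tested, under any alternative. Without the replicate block the count was 0 as well, with 17 genes higher and 12 lower at an unadjusted p under 0.05, against 520 and 241 with pairing. The sign of the genotype difference depended on pair S0 for some genes. Leaving out each pair in turn, the difference ran from -0.28 to 0.067 for Hsph1, from -0.23 to 0.019 for Hsp90aa1 and from -0.38 to 0.010 for Hspd1, the highest values being without S0, and from -0.026 (without S5) to 0.18 for Dnajb1. Without both S0 and S5 the difference was 0.096 for Hspa8, 0.11 for Hsph1, 0.022 for Hsp90aa1, 0.10 for Hspe1 and 0.040 for Hspd1, and 9 of 10 were above 0. The cause of these reversals was not tested. Of S5 against the other pairs, 3 to 4 genes lay above and 1 to 2 below when S0 to S4 were left out in turn, with 2 below (Hspe1 and Hspa5) without S3. Quantile normalization changed the background of S5 libraries above the range from 21.4% to 28.0% and of those below from 28.1% to 21.0%. Small S5 differences changed sign: that of Hspa8 to 0.080 with quantile normalization, that of Hsp90aa1 to -0.25 without S3 and -0.022 without S4, and that of Hspa1a to -0.027 without S4. The number of the 10 genes at an unadjusted p under 0.05 was 1 in place of 0 without S1 and without S3. The other differences of the 10 genes kept their sign under the alternatives run. RPKM holds no read numbers, so no counting interval can be given.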

Other observations

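By the root mean square difference of centred log2(RPKM + 1) over the 12 libraries, the member nearest to Hspa8 was Hspe1 (0.237, with a median of 0.479 over the genes tested). The member nearest to Hspd1 was Hsp90aa1 (0.341), ahead of its chamber partner Hspe1 (0.409), Hspa8 (0.431) and Hspa5 (0.498), with a median of 0.800. For Hspa5 the nearest was Hspd1 (0.498) and the farthest Hspb1 (1.99), with a median of 1.01. For Hspa1a the nearest was its neighbouring copy Hspa1b (0.271), with which it shares sequence, and the median was 0.441. These distances describe 12 libraries that come in pairs, and no test was made of them.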
